A study of Mus musculus with 24 samples.

Results

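Nuclear receptors are transcription factors that bind hormones, vitamins, fatty acids, sterols or bile acids and then switch genes on or off, and the mouse liver uses many of them to match metabolism to food and toxins. The 34 genes described here were chosen by name, as the members of this family listed by gene symbol, out of 48968 genes with an Ensembl match in the deposited tables. Each gene was represented by the row (below called a feature, 1 assembled transcript of 1 locus) with the highest mean over the groups, and its other features served as support. Together the 34 genes had 87 of the 69905 features.

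The livers came from wild-type C57BL/6 mice, of the C57BL/6N substrain and male by the study's methods, 18 weeks of age, which carried no engineered allele and were injected for 12 weeks with locked nucleic acids (LNAs), short antisense oligonucleotides that bind and deplete a chosen RNA. Mice ate either NCD, in which fat gave 11, carbohydrate 62 and protein 27 kJ%, or HFD, in which they gave 54, 22 and 24 kJ%. The 4 groups used here were Scr LNA NCD and Scr LNA HFD, which received a control LNA (CTRL NEG A), Mafg LNA HFD, which received an LNA against the small MAF transcription factor Mafg, and LincIRS2 LNA NCD, which received an LNA against the long noncoding RNA LincIRS2 (4833411C07Rik). Below, a value given with Mafg LNA or with LincIRS2 LNA is that of the group so named. Each group had 4 livers, and the Mafg LNA NCD and LincIRS2 LNA HFD groups (8 livers) were not analysed here. Total RNA was depleted of ribosomal RNA and sequenced, so whole liver was measured, and in such bulk samples fewer cells of a type and less RNA per cell cannot be told apart. The methods describe an injection of saline or insulin before the livers were taken, which the labels do not give for each liver and which therefore cannot be told apart from the spread within a group.

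Each value is 1 FPKM (fragments scaled to transcript length and to the number of mapped fragments) for a group of 4 livers that the authors pooled. No SD, no test and no interval can therefore be given, the depth is unknown, and no difference below has a replicate check. Differences are given as the ratio of the pooled values, and a gene is called higher or lower here only when they differ by at least 1.5-fold (0.585 on the log2 scale) and its mean over the groups is at least 0.1 FPKM. HFD against NCD and Mafg LNA against Scr LNA share the Scr LNA HFD group, and HFD against NCD and LincIRS2 LNA against Scr LNA share Scr LNA NCD, so 1 high or low control value moves both ratios that use it.

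Background on the family helps in reading the list. Retinoid X receptors are the shared partners with which the sensors of oxysterols (Nr1h2 and Nr1h3, the liver X receptors LXRβ and LXRα), bile acids (Nr1h4, FXR), drugs (Nr1i2, PXR, and Nr1i3, CAR), fatty acids (Ppara and Ppard), retinoic acid, thyroid hormone and vitamin D bind DNA. Steroid receptors bind as pairs of their own kind, and orphan receptors such as Hnf4a, a master regulator of hepatocyte genes, have no agreed circulating hormone. The NR4A receptors are immediate early genes that act largely through how much of them is made.

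Of the 34 members, 27 reached the mean of 0.1 FPKM and 20 reached 0.5 FPKM, and the 7 below the minimum were Rxrg, Thra, Vdr, Hnf4g, Nr2f1, Nr2f2 and Nr2f6. Thra and Nr2f1 were listed at 0 in all groups, and Nr2f6 had the most of these 7, with 0.0618 FPKM in Scr LNA NCD. These low values do not show that the genes were silent. Only 31.9% of the feature numbers assigned by the assembly are in the tables, and the numbers skipped after a feature matched the remaining Ensembl transcripts of its gene in 84.5% of 25091 features at 0, so a skipped number is read here as a further transcript of the locus that was not used. The Thra feature was followed by 14 skipped numbers, that of Rxrg by 16, of Vdr by 9, of Nr2f6 by 9 and of Nr2f1 by 8. Of the 27 members measured, 14 had no skipped number and 13 had some.

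The same limit touched the check of the tissue. Of 10 hepatocyte markers 9 had a feature, and Apoa1 (581 to 1499 FPKM), Hpd (505 to 705 FPKM) and Asgr1 (17.6 to 19.5 FPKM) were high in every group, while albumin (Alb) was listed at 0 in 3 groups and at 2663 FPKM in LincIRS2 LNA NCD, with 3 skipped numbers. LincIRS2, the RNA targeted, was at 0.558 FPKM under Scr LNA on NCD, 0.345 with LincIRS2 LNA, 0.213 under Scr LNA on HFD and 0.483 with Mafg LNA. No feature carried the name Mafg, so its depletion was not checked here. The tables give no strand for a feature, so it was read from how the numbering runs along each chromosome, and 60.5% of 19922 features of all genes at or above the minimum lay opposite to the gene they were assigned to. Among the members, 19 of the 27 measured features lay opposite to their gene and 8 on its own strand, and the part this plays in the values was not tested.

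By the feature of highest mean, the receptors with the highest values were the xenobiotic sensor Nr1i3 and the bile acid sensor Nr1h4. Nr1i3 was at 12.7 FPKM under Scr LNA on NCD, 21.3 under Scr LNA on HFD, 15.5 with Mafg LNA and 12.3 with LincIRS2 LNA, and its mean exceeded that of 95.6% of the genes measured. Nr1h4 was at 15.8, 13.6, 12.7 and 16.3 FPKM in the same order. Both HFD groups were thus above both NCD groups for Nr1i3 and below them for Nr1h4, the latter by a small margin. The next in order of mean were the shared partner Rxra (8.12 FPKM), Hnf4a (7.09 FPKM) and the estrogen receptor Esr1 (4.93 FPKM). From Thrb, the main thyroid hormone receptor of hepatocytes, at 2.83 FPKM, the means of Nr1h2, Rxrb, Nr1i2, Nr3c2, Nr5a2, Nr2c1, Nr2c2, Nr6a1, Rora and Ppara ran down to 1.08 FPKM. Since the spread between livers is not known, it cannot be said which neighbours in this order differ. The order also follows from using 1 feature for each gene. Summed over all features under Scr LNA on NCD, Nr1h4 was at 25.9 FPKM, Thrb at 22 and Nr1i3 at 12.7. By these sums Hnf4a was at 7.81, Rxra at 7.73 and Esr1 at 5.99 FPKM, all below Thrb.

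**Figure D1:**
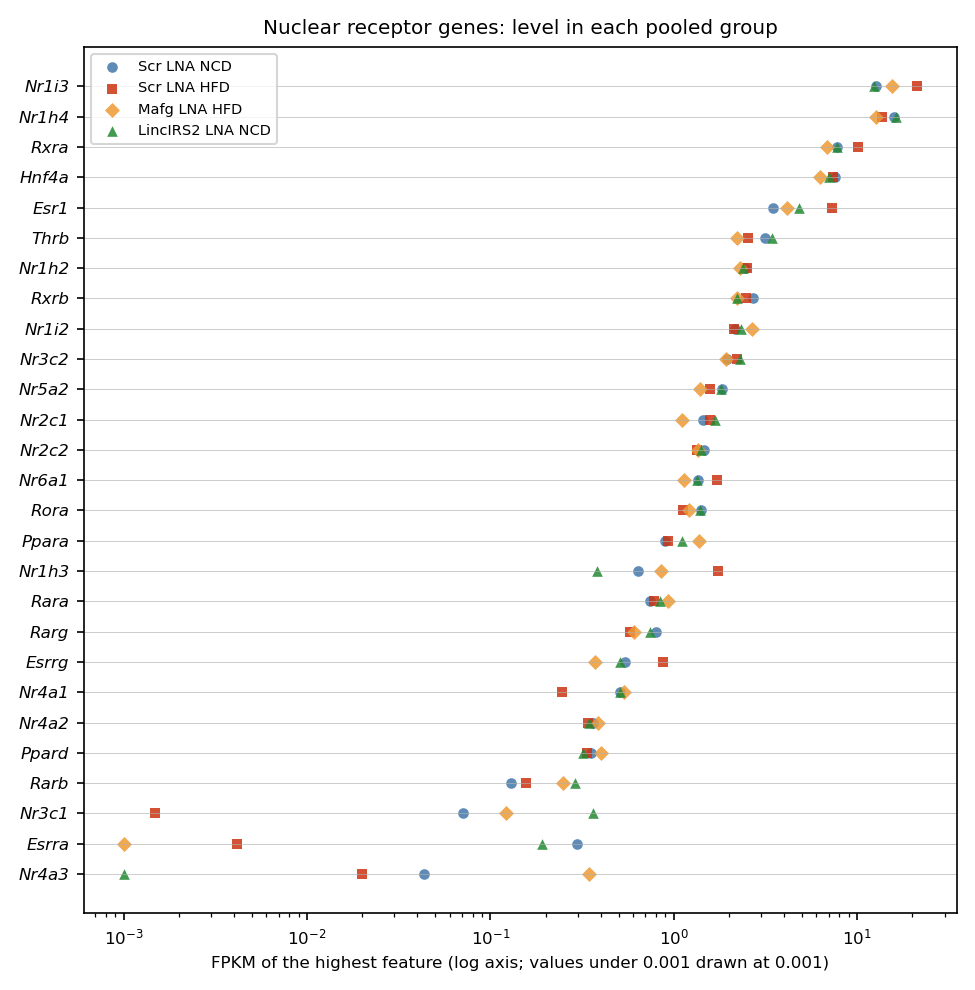
FPKM of each of the 27 measured nuclear receptor genes on a log axis, 1 symbol for each pooled group of 4 livers, with genes ordered by their mean. For Nr1i3, Rxra, Esr1, Nr6a1, Nr1h3 and Esrrg the Scr LNA HFD value is the highest of the 4, for Nr4a1 and Nr3c1 it is the lowest, and Nr3c1, Esrra and Nr4a3 at the foot of the plot have single values close to 0.

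Within the lipid sensors, the widely expressed LXRβ gene Nr1h2 was nearly flat, at 2.45 FPKM under Scr LNA on NCD, 2.52 under Scr LNA on HFD, 2.31 with Mafg LNA and 2.39 with LincIRS2 LNA. Its highest value was 1.09 times its lowest, the narrowest range of the 20 members at 0.5 FPKM or more. The LXRα gene Nr1h3 (chr2:91184061-91202834, minus strand, GRCm38) was the most variable of the sensors, at 0.638, 1.75, 0.851 and 0.381 FPKM in the same order. The ratio of the Nr1h2 to the Nr1h3 feature accordingly went from 3.85 under Scr LNA on NCD to 1.44 under Scr LNA on HFD, and was 2.72 with Mafg LNA and 6.29 with LincIRS2 LNA. The Nr1h3 feature lay opposite to the gene, its nearest Ensembl transcript was a retained intron, and 1 number was skipped after it, so it may not follow the total of the gene.

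Across the retinoid X receptors, Rxra was at 7.73 FPKM under Scr LNA on NCD, 10.1 under Scr LNA on HFD, 6.86 with Mafg LNA and 7.78 with LincIRS2 LNA, and Rxrb was at 2.72, 2.47, 2.22 and 2.2 FPKM. Rxra was thus 2.84 to 4.09 times as abundant per length as Rxrb, with the highest ratio in Scr LNA HFD. Both features were 1 of several transcripts of their locus, with 8 and 11 skipped numbers.

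HFD against NCD under Scr LNA asks what obesity-inducing food did to receptor levels. Of the 27 measured members, 4 were at least 1.5-fold higher and 4 at least 1.5-fold lower on HFD. The 4 higher ones were all at a mean of 0.5 FPKM or more: Nr1h3 (2.75-fold), Esr1 (2.1-fold), Nr1i3 (1.68-fold) and Esrrg (1.61-fold), the last an orphan receptor that in other tissues drives mitochondrial genes. The 4 lower ones, Nr4a1, Nr4a3, Nr3c1 and Esrra, were all under 0.5 FPKM, and Nr4a3 and Nr3c1 were under 0.1 FPKM in both groups compared here and met the minimum only through another group. With the minimum applied to the groups compared alone, 4 members were higher and 2 lower of 25. Across all 12992 genes measured, 10.2% were higher and 10.6% lower by this rule, against 14.8% of the members in each direction. Among genes at 0.5 FPKM or more the shares were 6.42% higher and 5.89% lower, while 4 of 20 members were higher and 0 were lower. The median log2 ratio was -0.034 over the members and 0.008 over all genes.

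Esr1 (chr10:4611593-5005614, plus strand), the estrogen receptor that also acts in male liver, was at 3.47 FPKM in Scr LNA NCD and 7.27 in Scr LNA HFD. Its 3 further features above 0.1 FPKM did not share this difference, with 1.04 against 0.977, 0.458 against 0.871 and 0.328 against 0.656 FPKM on HFD and NCD, so 2 of the 4 were higher and 2 lower. Summed over all its features Esr1 was 1.52-fold higher, at 9.1 against 5.99 FPKM. Most of this sum is the main feature, so it is no separate check. All 4 of these features lay opposite to the gene. The feature on the strand of the gene was at 0.0139 FPKM on NCD and next to 0 on HFD. Esrrg (chr1:187608791-188214885, plus strand) had 3 features opposite to the gene, each higher on HFD, by 0.69, 0.53 and 0.66 on the log2 scale. Its remaining feature, on the strand of the gene, went the other way, from 0.41 FPKM on NCD to 0.173 FPKM on HFD. Nr1i3 (chr1:171213970-171220701, plus strand) had a single feature, on its own strand, which was 1 of 13 transcripts of the locus.

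These 4 members were those higher on HFD at 0.5 FPKM or more, and their promoters are shown to compare the letters around their starts. The sequences are RefSeq windows of 300 bases (build GRCm38.p6), from 250 bases before to 50 after the start nearest to that of the matched Ensembl transcript, and 31 of the 34 members had such a window. Capitals mark matches, on either strand, to AGGTCA (the nuclear receptor half-site), TGCTGA (the half-site of MAF factors), CACGTG (the E-box of clock factors), GGGCGG (the GC box) or CCAAT (the CCAAT box), none of which overlapped another in the windows shown.
Nr1h3 (chr2:91194986-91195285, minus strand): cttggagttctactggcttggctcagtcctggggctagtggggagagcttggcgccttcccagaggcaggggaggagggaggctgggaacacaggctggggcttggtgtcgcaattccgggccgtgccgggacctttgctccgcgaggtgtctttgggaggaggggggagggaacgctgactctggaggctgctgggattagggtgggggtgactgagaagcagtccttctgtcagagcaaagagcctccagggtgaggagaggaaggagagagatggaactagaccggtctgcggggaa
Esr1 (chr10:4611739-4612038, plus strand): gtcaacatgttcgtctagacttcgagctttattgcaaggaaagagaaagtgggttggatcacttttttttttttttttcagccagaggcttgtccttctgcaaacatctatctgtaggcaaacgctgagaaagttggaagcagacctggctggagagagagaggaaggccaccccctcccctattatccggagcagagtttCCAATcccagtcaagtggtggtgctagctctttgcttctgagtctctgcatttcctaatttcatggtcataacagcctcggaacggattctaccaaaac
Nr1i3 (chr1:171213720-171214019, plus strand): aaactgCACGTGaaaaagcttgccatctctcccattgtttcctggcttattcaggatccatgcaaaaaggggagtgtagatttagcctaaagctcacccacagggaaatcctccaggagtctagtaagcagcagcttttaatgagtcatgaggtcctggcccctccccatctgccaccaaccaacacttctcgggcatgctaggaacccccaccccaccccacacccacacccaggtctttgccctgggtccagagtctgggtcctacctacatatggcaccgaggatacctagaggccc
Esrrg (chr1:187997577-187997876, plus strand): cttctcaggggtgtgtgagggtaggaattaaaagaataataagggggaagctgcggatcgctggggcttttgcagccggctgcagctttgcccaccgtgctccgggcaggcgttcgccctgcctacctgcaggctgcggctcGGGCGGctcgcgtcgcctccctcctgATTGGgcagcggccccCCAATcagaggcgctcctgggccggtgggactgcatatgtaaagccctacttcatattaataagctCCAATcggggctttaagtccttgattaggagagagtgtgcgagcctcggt
None of these windows held AGGTCA or TGCTGA. The Nr1i3 window held 1 CACGTG, at its upstream end, Esr1 held 1 CCAAT, Esrrg held 3 CCAAT and 1 GGGCGG, and Nr1h3 held none of the 5 motifs. Over the 31 member windows AGGTCA was found in 16.1% (Nr1h4, Nr5a2, Rara, Rarg and Thrb), beside 16.2% of 32544 mouse promoter windows. TGCTGA was found in 1 member (Vdr), beside 19.5% of all windows, and CACGTG in 1 (Nr1i3), beside 7.17%. GGGCGG was found in 16 of the 31, beside 35.9% of all windows, and CCAAT in 11, beside 37.4%. A match is a description of the letters and not of a bound site.

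Among the 4 lower members, Nr4a1 (Nur77) was at 0.507 FPKM on NCD and 0.245 on HFD, and its second feature was lower as well (0.153 against 0.105 FPKM). Nr4a2 (Nurr1) was at 0.361 and 0.339 FPKM and was not past the threshold. Nr4a3 (NOR1) was at 0.0432 and 0.0199 FPKM, close to the limit of what was measured. The glucocorticoid receptor gene Nr3c1 was listed at 0.0711 and 0.00149 FPKM and the orphan receptor Esrra, a regulator of mitochondrial genes, at 0.296 and 0.00415 FPKM. Both features stood for 1 of several transcripts of the locus, with 2 and 6 skipped numbers, and no fold change is read from values so near 0. The second Nr3c1 feature, on the strand of the gene, was at 0.0883 FPKM on NCD and 0.0899 on HFD.

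The remaining receptors differed little with diet. Hnf4a was at 7.61 FPKM on NCD and 7.43 on HFD, Nr1i2 at 2.15 and 2.13, Ppara at 0.901 and 0.932, Rara at 0.738 and 0.777, and Ppard at 0.355 and 0.335 FPKM. Values nearest to the threshold without reaching it were the retinoic acid receptor Rarg (0.801 against 0.575 FPKM) and Rxra. Rora, a clock-linked orphan receptor, was at 1.41 and 1.12 FPKM, and all 3 of its features at or above 0.1 FPKM were lower on HFD. The mineralocorticoid receptor Nr3c2 was at 1.95 and 2.2 FPKM, and Nr5a2 (LRH-1), which drives bile acid synthesis genes, at 1.83 and 1.57 FPKM. For Hnf4a a second feature, of 0.197 FPKM on NCD, was at 0.892 on HFD, 0.84 with Mafg LNA and 0.703 with LincIRS2 LNA, while the main one stayed within 6.26 to 7.61 FPKM.

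**Figure D2:**
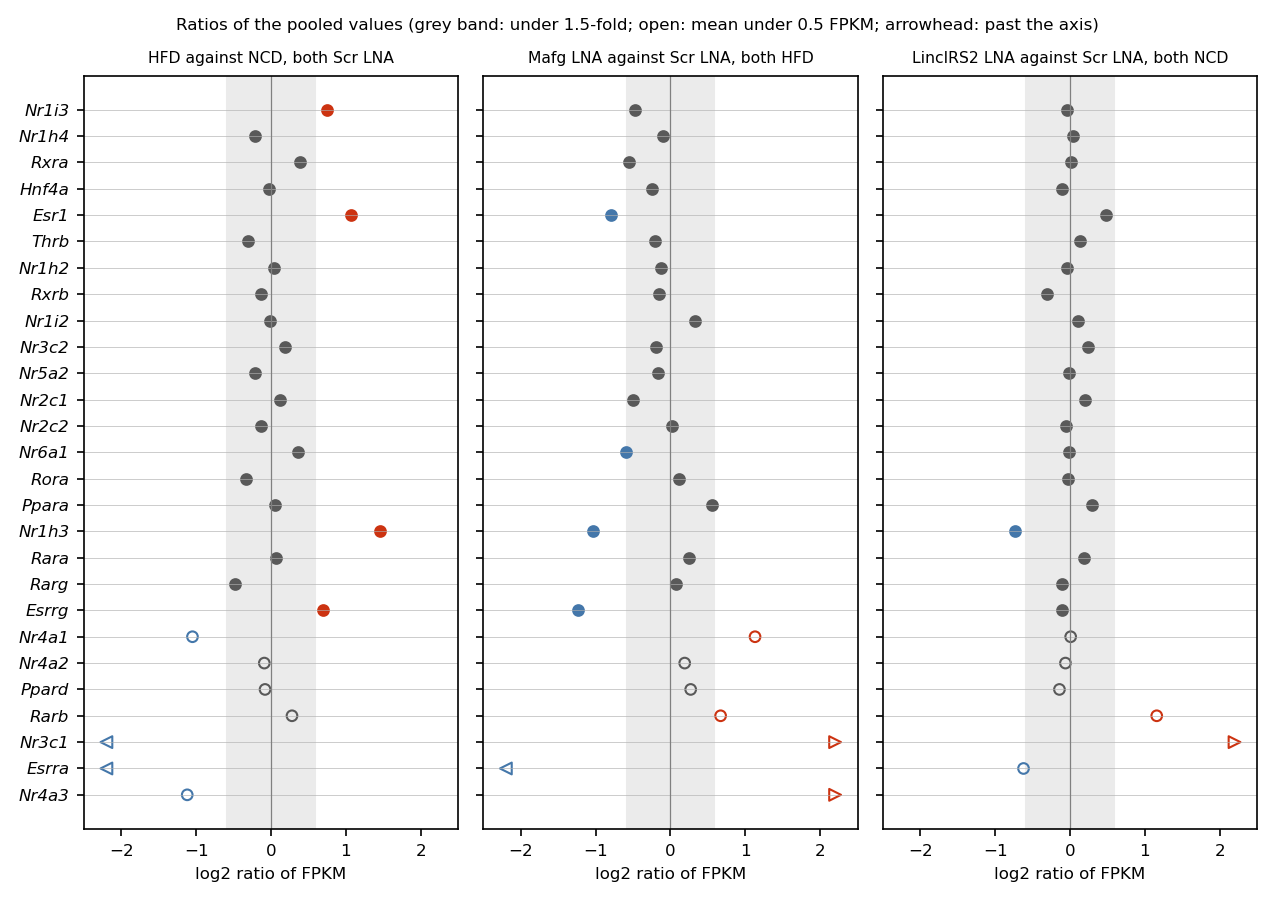
Log2 ratio of the pooled FPKM values of the 27 measured members in each comparison, with genes ordered by mean, filled points for means of 0.5 FPKM or more and the grey band marking less than 1.5-fold. The filled points past the band are to the right with HFD (Nr1h3, Esr1, Nr1i3 and Esrrg) and to the left with Mafg LNA (Esrrg, Nr1h3, Esr1 and Nr6a1), and the pair of panels shares the Scr LNA HFD group.

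Mafg LNA against Scr LNA on HFD asks what depletion of Mafg did in obese liver. Of the 27 measured members, 4 were higher and 5 lower with Mafg LNA, while 14.4% of all 12996 genes were higher and 10.8% lower. At 0.5 FPKM or more, 0 of 20 members were higher and 4 were lower, beside 7.24% and 7.64% of all genes. The 4 lower were Esrrg (2.35-fold), Nr1h3 (2.06-fold), Esr1 (1.75-fold) and Nr6a1 (1.52-fold), an orphan receptor best known from germ cells. The median log2 ratio was -0.124 over the 27 members and -0.032 over all genes.

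Esrrg went from 0.878 FPKM in Scr LNA HFD to 0.374 in Mafg LNA HFD, below the 0.545 FPKM of Scr LNA NCD. All 4 of its features were lower, with log2 ratios from -1.31 to -0.06. The -0.06 was that of the only feature on the strand of the gene, which hardly differed (0.173 against 0.166 FPKM).
Esr1 went from 7.27 to 4.16 FPKM, with all 4 features at or above 0.1 FPKM lower and log2 ratios from -2.07 to -0.80. Nr1h3 went from 1.75 to 0.851 FPKM, between its Scr LNA NCD and Scr LNA HFD values. Nr6a1 went from 1.73 to 1.14 FPKM, and its second feature hardly differed (1.07 against 1.01 FPKM). Summed over all its features, Nr6a1 was 1.31-fold lower and no longer past the threshold.

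Several liver receptors were lower by less than 1.5-fold. Rxra went from 10.1 to 6.86 FPKM (1.47-fold), Nr1i3 from 21.3 to 15.5 FPKM (1.38-fold), Nr2c1 from 1.58 to 1.11 FPKM (1.41-fold) and Hnf4a from 7.43 to 6.26 FPKM (1.19-fold). Thrb went from 2.55 to 2.21 FPKM, and 13 of its 15 features were lower. These features lie in 1 gene and are not replicates of each other. Ppara, the fatty acid sensor that turns on fatty acid oxidation, was on the other side, at 0.932 FPKM with Scr LNA and 1.38 with Mafg LNA (1.48-fold), just under the threshold. Nr1i2 went from 2.13 to 2.68 FPKM and Rara from 0.777 to 0.927 FPKM.

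The 4 members higher with Mafg LNA had means under 0.5 FPKM. Nr4a1 was at 0.245 FPKM with Scr LNA and 0.537 with Mafg LNA (2.19-fold), and its second feature was at 0.105 and 0.219 FPKM. Nr4a3 was at 0.0199 and 0.343 FPKM. The third gene of this group, Nr4a2, was at 0.339 and 0.386 FPKM in its main feature, and the 3 of its 5 features at or above 0.1 FPKM were all higher, with log2 ratios from 0.19 to 0.70. The Mafg LNA value of Nr4a1 was close to those of both NCD groups (0.507 and 0.509 FPKM), so Scr LNA HFD stood apart from the other 3 groups. Nr4a3 met the minimum only through its Mafg LNA value, so its place in this count follows from the filter. With the minimum applied to the groups compared alone, 3 members were higher and 4 lower of 25, and Nr3c1 and Esrra dropped out. The retinoic acid receptor Rarb was at 0.157 and 0.25 FPKM, Nr3c1 at 0.00149 and 0.121 FPKM, and Esrra was at 0.00415 FPKM and next to 0. The second Nr3c1 feature, on the strand of the gene, went the other way, from 0.0899 to 0.0415 FPKM.

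Other immediate early genes lay on both sides of the threshold. Of the 11 measured of 14 listed, 1 was higher and 3 were lower with HFD, and 2 were higher and 1 lower with Mafg LNA. The shares over all genes were 10.2% higher and 10.6% lower with HFD, and 14.4% and 10.8% with Mafg LNA. Egr1, a growth factor response gene, was at 0.709 FPKM under Scr LNA on NCD, 3.69 under Scr LNA on HFD, 0.803 with Mafg LNA and 0.644 with LincIRS2 LNA. It was thus highest in the group in which Nr4a1 was lowest. Ier3, named although its mean is under 0.5 FPKM, was at 0.443, 0.237, 0.473 and 0.358 FPKM in the same order, lowest and highest in the same groups as Nr4a1. Myc was at 1.42, 0.94, 1.08 and 0.45 FPKM in the same order.

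**Figure D3:**
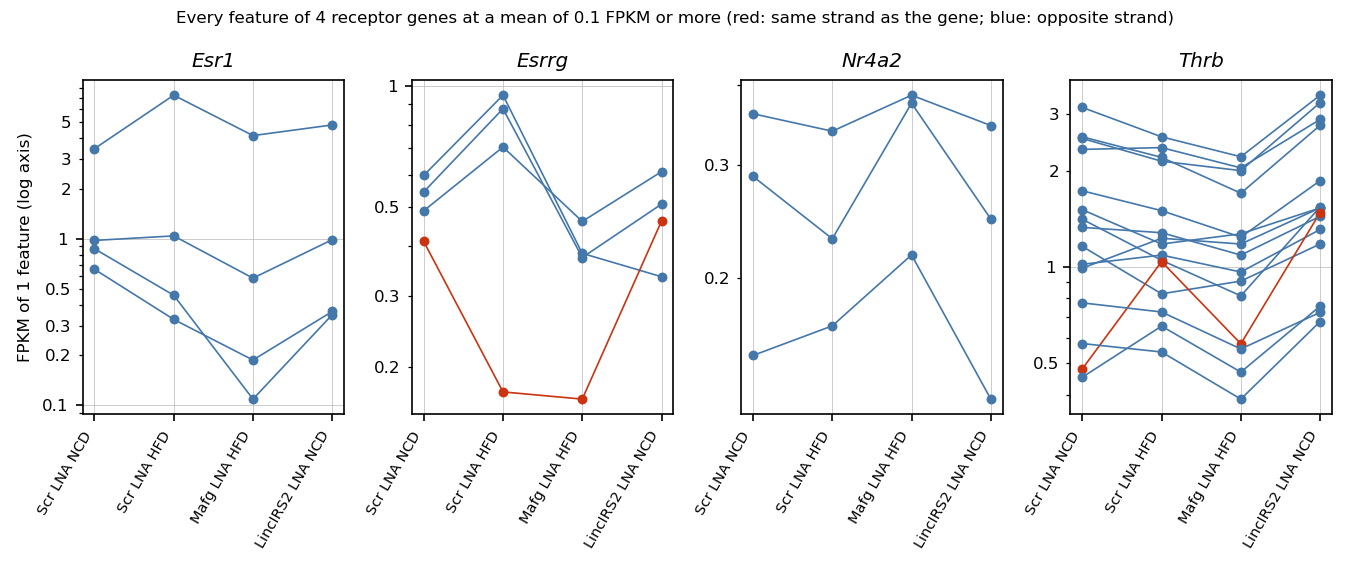
FPKM (log axis) of every feature of Esr1, Esrrg, Nr4a2 and Thrb with a mean of 0.1 FPKM or more in the 4 pooled groups, in blue where the feature lies opposite to the gene and in red where it lies on the same strand, with a line joining the values of 1 feature. All 4 features shown for Esr1 and the blue features of Esrrg are lower in Mafg LNA HFD than in Scr LNA HFD. The red feature of Esrrg hardly differs between these groups. The highest Esr1 feature is the only one of its gene to stand clearly higher on HFD. For Thrb, 14 of 15 features are higher in LincIRS2 LNA NCD than in Scr LNA NCD.

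LincIRS2 LNA against Scr LNA on NCD asks what depletion of LincIRS2 did in lean liver. Of 26 members with a ratio, 2 were higher and 2 lower, while 7.49% of all 12989 genes were higher and 9.47% lower. At 0.5 FPKM or more only Nr1h3 was past the threshold, at 0.638 FPKM with Scr LNA and 0.381 with LincIRS2 LNA (1.68-fold lower), beside 4.42% of all genes lower and 3.5% higher. The median absolute log2 ratio was 0.11 over the members and 0.19 over all genes, beside 0.28 and 0.24 with HFD and 0.33 and 0.27 with Mafg LNA.

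The other 3 past the threshold were low. Rarb was at 0.13 and 0.29 FPKM, Nr3c1 at 0.0711 and 0.365 FPKM, and Esrra at 0.296 and 0.192 FPKM. The second Nr3c1 feature, on the strand of the gene, went the other way, from 0.0883 to 0.0372 FPKM, so no direction is read for this gene. Esr1 was at 3.47 and 4.82 FPKM (1.39-fold), but 2 of its 4 features at or above 0.1 FPKM were higher and 2 lower. Thrb was at 3.15 and 3.44 FPKM, and 14 of its 15 features were higher, with a median log2 ratio of 0.13. Its single feature on the strand of the gene went from 0.481 to 1.48 FPKM, and summed over all features Thrb was 1.2-fold higher. Nr4a3 was listed at 0 with LincIRS2 LNA, and no fold is given for it. Nr1i3, Nr1h4, Rxra, Nr5a2, Nr2c2, Nr6a1, Rora and Nr4a1 had log2 ratios between -0.05 and 0.04.

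**Figure D4:**
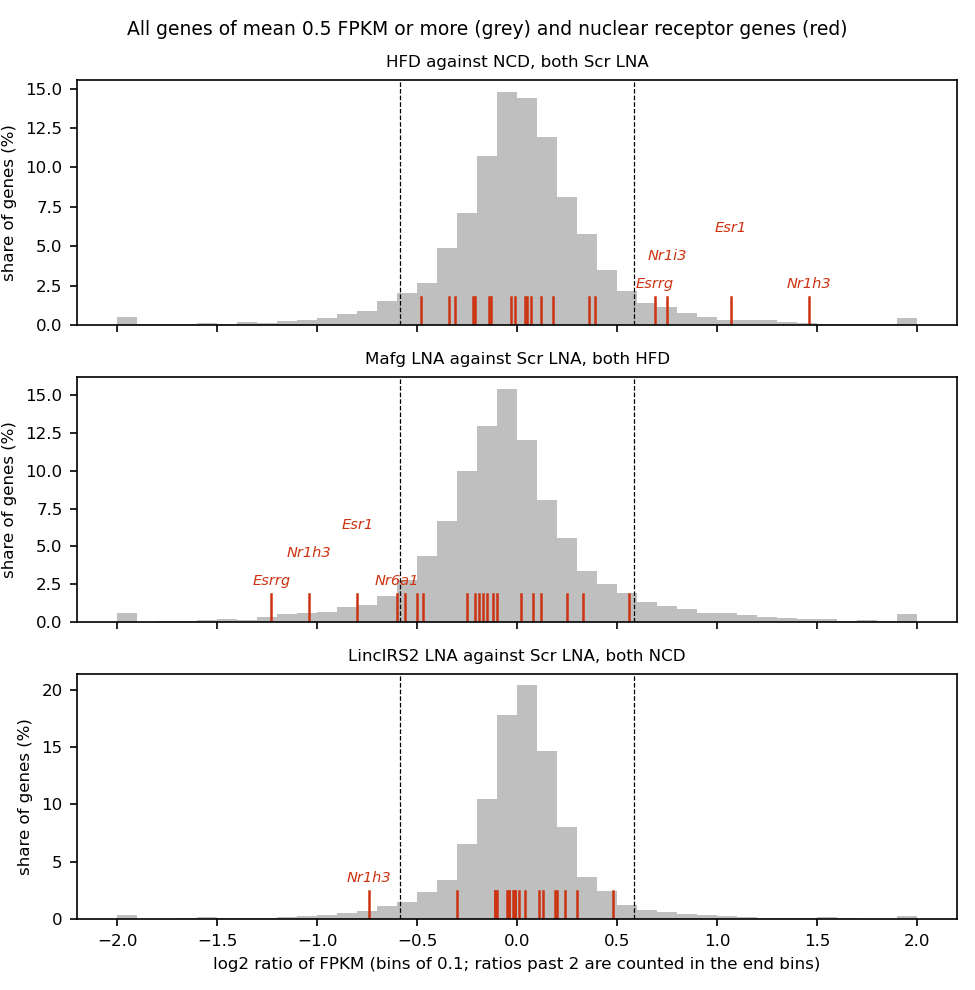
Distribution of the log2 ratio over all genes of mean 0.5 FPKM or more (grey, as a share of genes in bins of 0.1), with a red tick for each of 20 members and dashed lines at 1.5-fold, in the 3 comparisons. Past the lines are 4 ticks on the higher side with HFD, 4 on the lower side with Mafg LNA and 1, Nr1h3, on the lower side with LincIRS2 LNA, and all others lie within the lines.

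Known target genes of the receptors are described next, from lists made from textbook knowledge. Across all genes measured, 10.2% were higher and 10.6% lower with HFD, 14.4% and 10.8% with Mafg LNA, and 7.49% and 9.47% with LincIRS2 LNA. These shares stand beside every list count below. The lists are small, and no count is read as a result about a receptor. CAR and PXR activate drug-metabolizing enzymes, and of 13 measured of 18 targets, 4 were higher and 2 lower with HFD, 3 higher and 4 lower with Mafg LNA, and 3 higher and 1 lower with LincIRS2 LNA. Cyp2b9 was at 0.0935 FPKM under Scr LNA on NCD, 7.76 under Scr LNA on HFD, 0.447 with Mafg LNA and 0.469 with LincIRS2 LNA, which puts its highest value in the group in which Nr1i3 was highest. Cyp2b10, the classical CAR target, named here although its mean is under 0.5 FPKM, was at 0.0516, 0.961, 0.0835 and 0.292 FPKM. Aldh1a1, a retinal dehydrogenase, was highest in the same group, at 9.47, 23, 20.1 and 11.2 FPKM. Cyp2b13, also highest there, was under the minimum (0.337 FPKM in Scr LNA HFD and at most 0.0189 in the others). Cyp2c29 was not highest there, at 12, 10.8, 4.17 and 13.5 FPKM, and neither was the glutathione transferase Gsta1, at 0.123, 1.47, 4.22 and 0.961 FPKM. Cyp3a11, the classical PXR target, was at 11.8, 9.63, 13.4 and 12.9 FPKM and was not past the threshold.

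LXR activates lipogenic and sterol export genes, and these differed from one another in their order over the groups. Of 9 measured of 12 targets, 1 was higher and 3 lower with HFD, 1 higher and 3 lower with Mafg LNA, and 0 differed with LincIRS2 LNA. The 1 higher with HFD was Srebf1, the lipogenic regulator. It was at 1.36 FPKM under Scr LNA on NCD, 2.16 under Scr LNA on HFD, 1.16 with Mafg LNA and 1.77 with LincIRS2 LNA. Srebf1 was past the threshold on the same sides as Nr1h3 with HFD and with Mafg LNA. Its feature had 12 skipped numbers and may not follow the total of the gene. The desaturase gene Scd1 was at 2966 FPKM under Scr LNA on NCD, 1731 under Scr LNA on HFD, 635 with Mafg LNA and 2607 with LincIRS2 LNA. Fasn, the fatty acid synthase, was at 5.73, 3.29, 1.56 and 5.38 FPKM, and the lipoprotein lipase gene Lpl at 2.59, 1.5, 4.76 and 1.93 FPKM. The sterol exporter Abca1, a direct LXR target, was at 9.97, 10.2, 8.53 and 10.5 FPKM and was not past the threshold.

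Ppara was within 1.5-fold in each of the comparisons, while its targets included genes on both sides of the threshold. Of 20 measured of 23 targets, 6 were higher and 2 lower with HFD, 2 higher and 3 lower with Mafg LNA, and 2 higher and 2 lower with LincIRS2 LNA. The fatty acid hydroxylase Cyp4a14 was at 1.26 FPKM under Scr LNA on NCD, 8.44 under Scr LNA on HFD, 10.3 with Mafg LNA and 2.2 with LincIRS2 LNA. Vnn1, a pantetheinase, was at 2.98, 9.45, 17.1 and 4.55 FPKM, so its highest value was in the group in which Ppara was highest. Pdk4, which holds back glucose oxidation, was at 1.26, 2.26, 1.35 and 1.32 FPKM. Cyp4a10 and Acaa1b, also listed as PPARA targets, had features near 0 in at least 1 group, with 12 and 6 skipped numbers, and are not read. They were the 2 counted as lower with HFD, so that side of the diet count rests on them alone. Cyp4a10 was also among the lower and Acaa1b among the higher with Mafg LNA, and Acaa1b among the lower with LincIRS2 LNA.

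FXR represses bile acid synthesis through Nr0b2 (SHP), and here Nr0b2 was at 1.15 FPKM under Scr LNA on NCD, 1.79 under Scr LNA on HFD, 2.5 with Mafg LNA and 2.16 with LincIRS2 LNA. Cyp7a1, which starts the classical pathway of bile acid synthesis, was at 8.8, 10.7, 3.09 and 5.61 FPKM. Of 7 measured of 11 FXR targets, 2 were higher and 1 lower with HFD, 1 higher and 2 lower with Mafg LNA, and 1 higher and 1 lower with LincIRS2 LNA. In Mafg LNA HFD, where Nr0b2 was highest, Cyp7a1 was lowest and the bile acid ligase Slc27a5 was at 62.6 FPKM beside 130 in Scr LNA HFD. Cyp8b1, also in this list and with a mean under 0.5 FPKM, was highest in that group, at 0.262 FPKM beside 0.218. The list holds Nr0b2 together with synthesis genes such as Cyp7a1, so its counts have no single direction. The part of FXR in these values was not tested. Nr1h4 itself differed by no more than 1.16-fold in any of these comparisons, and its second feature by log2 ratios from -0.28 to -0.06.

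Thyroid hormone, glucocorticoid and HNF4A targets lay on both sides of the threshold. Dio1, the deiodinase that thyroid hormone induces, was at 5.35 FPKM under Scr LNA on NCD, 11.3 under Scr LNA on HFD, 9.87 with Mafg LNA and 6.97 with LincIRS2 LNA, and Thrsp, a lipogenic target, at 6.13, 9.08, 3.05 and 7.85 FPKM. Of the glucocorticoid receptor targets 11 of 14 were measured, and 2 were higher and 2 lower with HFD, 1 higher and 2 lower with Mafg LNA, and 3 higher and 0 lower with LincIRS2 LNA. The metallothioneins Mt2, at 6.12, 15.2, 9.75 and 43 FPKM, and Mt1, at 4.4, 9.87, 4.7 and 12.1 FPKM, which respond to metals as well, were the largest of these differences. Per1 and Tsc22d3, both direct glucocorticoid targets, were not past the threshold in any of the 3 comparisons. Of 12 measured HNF4A targets 2 were higher and 4 lower with Mafg LNA. The largest difference was that of Mttp, which was higher, at 3.09 FPKM beside 1.4 in Scr LNA HFD. Its feature had 12 skipped numbers and may not follow the total of the gene. Among the lower ones were Serpina1c, at 335 FPKM beside 629, and Apoc3, at 15.6 beside 27.8. For the retinoic acid receptors 4 of 9 targets were measured, and Cyp26a1, which breaks retinoic acid down, was at 2.24 FPKM in Scr LNA NCD and 1.11 in LincIRS2 LNA NCD.

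Genes that make or clear receptor ligands differed too. Of 10 measured of 15, 4 were higher and 2 lower with HFD, and 0 were higher and 3 lower with Mafg LNA. Serpina6, which carries corticosteroids in blood, was at 9.58 FPKM under Scr LNA on NCD, 18.1 under Scr LNA on HFD and 11.6 with Mafg LNA. Hsd11b1, which regenerates active glucocorticoid, was at 183, 194 and 113 FPKM in these groups.

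Coactivators and corepressors, the partners of the receptors in transcription, were past the threshold only at low levels. Of 13 measured coactivators 1 was higher and 2 lower with HFD, 1 higher and 1 lower with Mafg LNA, and 2 higher and 1 lower with LincIRS2 LNA, and each of these had a mean under 0.5 FPKM. The general coactivators Ep300, Crebbp, Ncoa2 and Med1 had log2 ratios between -0.13 and 0.12. Ppargc1a (PGC-1α), the coactivator of Esrra and Ppara, was at 1.28 FPKM under Scr LNA on NCD, 1.02 under Scr LNA on HFD, 1.27 with Mafg LNA and 1.13 with LincIRS2 LNA. Of 7 measured corepressors 1 (Kdm1a, at 0.114 FPKM on average) was past the threshold with HFD and with Mafg LNA, and 0 were with LincIRS2 LNA.

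Blood and immune cell markers differed between the same groups. The summed level of 12 macrophage markers was 54.5 FPKM under Scr LNA on NCD, 33.3 under Scr LNA on HFD, 48 with Mafg LNA and 30.1 with LincIRS2 LNA, with 7 of 11 measured lower with HFD, 7 higher with Mafg LNA and 10 lower with LincIRS2 LNA. None was at 0 in all groups. Nr1h3 and Nr4a1 are also expressed in macrophages. In the same order of groups, Nr4a1 was at 0.507, 0.245, 0.537 and 0.509 FPKM and Nr1h3 at 0.638, 1.75, 0.851 and 0.381 FPKM. For 6 neutrophil markers the sums were 15.7, 1.63, 6 and 1.58 FPKM, and for 10 lymphocyte markers 1.77, 1.49, 3 and 1.02 FPKM. The 5 erythroid markers summed to 2045, 1950, 901 and 2032 FPKM, lowest in Mafg LNA HFD. Endothelial sums ranged from 18.2 to 24.3 FPKM. Sums of stellate cell markers ran from 66.2 to 72.3 FPKM and those of cholangiocytes from 10.1 to 19.4 FPKM. Rarb is also expressed in stellate cells. Dcn and Rgs5 made up most of the stellate sum, and Spp1 (8.65 to 17.9 FPKM) most of the cholangiocyte sum. Of 6 measured stellate markers 1, Col1a2, was past the threshold with Mafg LNA, at 6.3 FPKM beside 3.01 in Scr LNA HFD. The part of these cells in the receptor values was not tested.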

How the data were processed

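Liver total RNA of 24 mice in 6 groups was sequenced, and 4 groups (16 livers) were used. According to the study's methods and the submitters' processing notes, reads were trimmed with flexbar, filtered with Bowtie2 2.2.9, aligned to GRCm38 with STAR 2.6.0c and assembled with Cufflinks 2.2.1 with Ensembl transcripts, and Cuffdiff gave the values. The FPKM values were computed by the authors, who deposited 1 value per group and feature, pooled over 4 livers. The tables hold no counts and no values of single livers, so depth and precision are unknown. The deposited tables also hold the authors' fold changes, test statistics, p-values and calls, which were not used.

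The 3 tables were joined by feature, and the values of shared groups differed in 0 features. Ratios of pooled FPKM values were taken without a pseudocount with Python 3.11.15 and pandas 2.3.3. A gene was its feature of highest mean, a minimum mean of 0.1 FPKM was applied, both groups had to be above 0, and 1.5-fold was the threshold. The ratio code was tested on simulated data. Members below the minimum were kept in the description. All 34 members were eligible to be named. From the other lists up to 3 genes per comparison were named, those with the largest difference past 1.5-fold at a mean of at least 0.5 FPKM, and genes outside this rule, such as those named as not past the threshold, were chosen after their values were seen. Some of the listed genes are not reported here. The members and lists were chosen with earlier results of these data known. Alternatives changed the fold, the minimum, the pseudocount, the feature used, the centring and the fragment status. The labels and the study's text differ on the age of the mice and the length of LNA treatment, and the labels were followed.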

Additional observations from a re-analysis of the deposited data

How the results depend on the processing

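The 8 members past the threshold with HFD became 4 at a minimum of 0.5 FPKM, 2 at 1 FPKM, 5 among features with enough fragments by the status the authors deposited, and 4 among features with no skipped number, an alternative chosen after seeing the data. The 9 with Mafg LNA became 14 at the lowest fold tried, 4 at 0.5 FPKM, 2 at 1 FPKM, 5 on the strand of the gene and 4 with no skipped number. The 4 with LincIRS2 LNA became 2 at 2-fold, 1 at 0.5 FPKM, 0 at 1 FPKM, 8 without a minimum, 2 by status and 0 with no skipped number. Every other alternative tried stayed within 1.5 times the count first given, among them the pseudocount of 0.1 FPKM, the sum over features and the centring in all 3 comparisons. A similar count did not always hold the same members. With HFD on the strand of the gene, Nr1h3 and Esr1 had no feature at the minimum and left the count. Nr1i3 stayed, and Thrb (1.12 on the log2 scale) and Nr2c2 (0.82) entered. With LincIRS2 LNA, Nr1h3 and Nr3c1 left in the same way. With Mafg LNA, Nr1h3, Esr1, Nr6a1, Nr4a1, Nr4a3 and Nr3c1 left in the same way, and Esrrg (-0.06) was no longer past the threshold. The 5 counted there were Nr2c2 (1.49) and Rarb (0.67), which were higher, and Thrb (-0.86), Nr1i2 (-0.81) and Esrra, which were lower. Esrrg on HFD turned over, to -1.25 on the log2 scale, when only the feature on the strand of the gene was used. A minimum over the groups compared alone, also added after seeing the data, gave 6, 7 and 4. For the 10 members past the threshold in at least 1 comparison, 248 values kept their side of the threshold under the alternatives, 20 crossed it and 1 reversed. The 248 include values under the threshold that stayed under it. A member with no value under an alternative, such as Nr1h3 on the strand of the gene, is in none of these counts. No paired analysis was possible because the columns are pooled over livers and carry no replicate numbers, and for the same reason no liver could be left out. Depth limits the members under 0.5 FPKM most, and without counts no floor can be given for values listed at 0.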

Other observations

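Nuclear receptors outside the 34 members were mostly not measured, with 9 of 14 under the minimum and 4 of these at 0 in all groups. Pparg, the receptor that drives lipid storage, was at 0.287 FPKM under Scr LNA on NCD, 0.92 under Scr LNA on HFD, 1.71 with Mafg LNA and 0.253 with LincIRS2 LNA, with log2 ratios of 1.68 for HFD and 0.90 for Mafg LNA. The heme receptor Nr1d1, a clock gene, was at 1.04 FPKM in both HFD groups and at 1.17 FPKM with LincIRS2 LNA. Of 12 measured clock genes, 0 were higher and 2 lower with HFD, and both of these had a mean under 0.5 FPKM.

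Genes with several features gave different pictures from feature to feature. Nr1i2 was nearly flat with HFD in its main feature, and its second, on the strand of the gene, was at 0.393 FPKM in Scr LNA NCD and 0.221 in Scr LNA HFD. Nr2c2 was flat in its main feature (1.34 to 1.46 FPKM), while its second ranged from 0.0874 FPKM in Scr LNA NCD to 0.432 in Mafg LNA HFD.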
